A study of Homo sapiens with 2 samples.

Results

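The transcription factor NRF2, encoded by NFE2L2, and 9 genes known as its antioxidant and detoxifying targets were followed in HSC-3 tongue carcinoma cells grown on Myogel or on plastic. The genes were chosen by name, as NFE2L2, NQO1, HMOX1, GCLC, GCLM, GPX2, TXNRD1, SRXN1, SLC7A11 and AKR1B10, and every probe set annotated to exactly 1 of these symbols was used. This gave 22 probe sets for 10 of the 19775 genes measured. HSC-3 cells are an established line of aggressive human tongue squamous carcinoma, and those used here carried a red fluorescent protein from lentiviral particles with a non-coding control sequence and had been selected with puromycin. Both groups grew in the same DMEM/F-12 medium with serum, hydrocortisone and ascorbic acid, which is itself an antioxidant. In each group 90000 cells were seeded per well into 6-well plates, either uncoated (plastic) or coated with Myogel, a gelatinous extract of human uterine leiomyoma, and were harvested the next day. Equal amounts of RNA from 3 wells were combined, and labelled cRNA was made from 1 µg of each pool. The cRNA of each pool went onto 1 Affymetrix Human Genome U133 Plus 2.0 array. The treatment label of both samples names uncoated plates, whereas the title and source label of the second name the Myogel coating, and the titles were followed. The comparison thus rests on 2 arrays, no difference has a replicate check, and no p-value is given.

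NRF2 is a transcription factor of the oxidative stress response. In resting cells the adaptor KEAP1 holds it in the cytoplasm and presents it to a CUL3 ubiquitin ligase for degradation, and oxidants or electrophiles that modify KEAP1 let NRF2 accumulate, pair with a small MAF protein and bind antioxidant response elements. The target genes supply and use glutathione, reduce thioredoxin and peroxiredoxins, and detoxify quinones, carbonyls and heme. The pathway is often active in squamous carcinomas, where mutations of NFE2L2 or KEAP1 are known.

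The core of the antioxidant response element, TGACNNNGC, was searched on both strands in the RefSeq promoter windows of the genes (GRCh38.p14, 250 bases before to 50 bases after the start site). These windows show which of the genes hold the letters near a start site. Sequence farther away was not searched, so a window without the core does not show that the gene lacks the element. The table matched 7 of the 10 genes with 9 windows, and HMOX1, SLC7A11 and AKR1B10 were not matched. The core was found in 4 of the 9 windows, belonging to 3 genes, and in 13.3% of the 35116 windows in the table. The matches lie at chr1:93909441-93909479 (minus strand) for GCLM, chr14:64942844-64942882 (minus strand) for GPX2, and chr12:104215665-104215703, chr12:104215756-104215779 and chr12:104286915-104286953 (plus strand) for TXNRD1, whose windows belong to different start sites. The sequences below run 5′ to 3′ on the strand of the gene, with the core in capitals. It reads TGACNNNGC where it lies on the strand of the gene, as in the first line of TXNRD1, and GCNNNGTCA where it lies on the opposite strand. The first base of the core lies 34 bases before the start site in GCLM and 122 bases before it in GPX2, and 99, 8 and 102 bases before it in the lines of TXNRD1. These are matches of letters, and the arrays do not measure binding.
GCLM: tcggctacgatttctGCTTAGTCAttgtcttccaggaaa
GPX2: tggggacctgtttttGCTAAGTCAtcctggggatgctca
TXNRD1, first window: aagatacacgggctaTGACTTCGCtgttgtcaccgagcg
TXNRD1, first window, at the start site: gccaggcgtccttcgGCTCCGTCA
TXNRD1, second window: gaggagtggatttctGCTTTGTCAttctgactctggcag

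The deposited values are linear intensities with a floor of 1. For the fold change (FC) the Myogel value was divided by the plastic value. A probe set or gene passed when the FC reached 1.5 in either direction. The methods of the study name this limit, but the study reports far fewer genes at it than the ratio alone passed here. The counts below are therefore not those of the study. With a difference of at least 100 linear units also required, 355 probe sets were higher and 500 lower. Whether the study set such a condition is not stated in its methods, and the reason for the gap was not tested. Over all 54613 probe sets the median log2 FC was -0.11, and over the 19775 genes, each represented by its brightest probe set, it was -0.07, so that small negative values are common to the array. The 12 labelling controls spiked into the RNA were all lower on the Myogel array, with a median log2 FC of -1.70. Of the 9 Bio hybridisation controls, added after labelling, 8 were lower, with a median log2 FC of -0.42. The part of both kinds of control in the gene values was not tested. Markers of squamous epithelium were bright on both arrays, from 972 to 18856 on plastic and from 923 to 18224 on Myogel over 8 measured genes. Of 8 smooth muscle markers, which RNA from the leiomyoma could bring, the summed intensity was 853 on plastic and 803 on Myogel, and 5 were lower and 3 higher on Myogel. CNN1 had 17.6 on plastic and the floor value on Myogel and CASQ2 was at or near the floor on both, whereas DES (43.0 on plastic, 63.5 on Myogel), LMOD1 (14.3 on plastic, 30.9 on Myogel) and ACTG2 (240 on plastic, 272 on Myogel) were higher. The sums were 717 and 719 for 7 fibroblast markers, 332 and 271 for 5 endothelial markers and 605 and 599 for 4 blood markers.

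**Figure D1:**
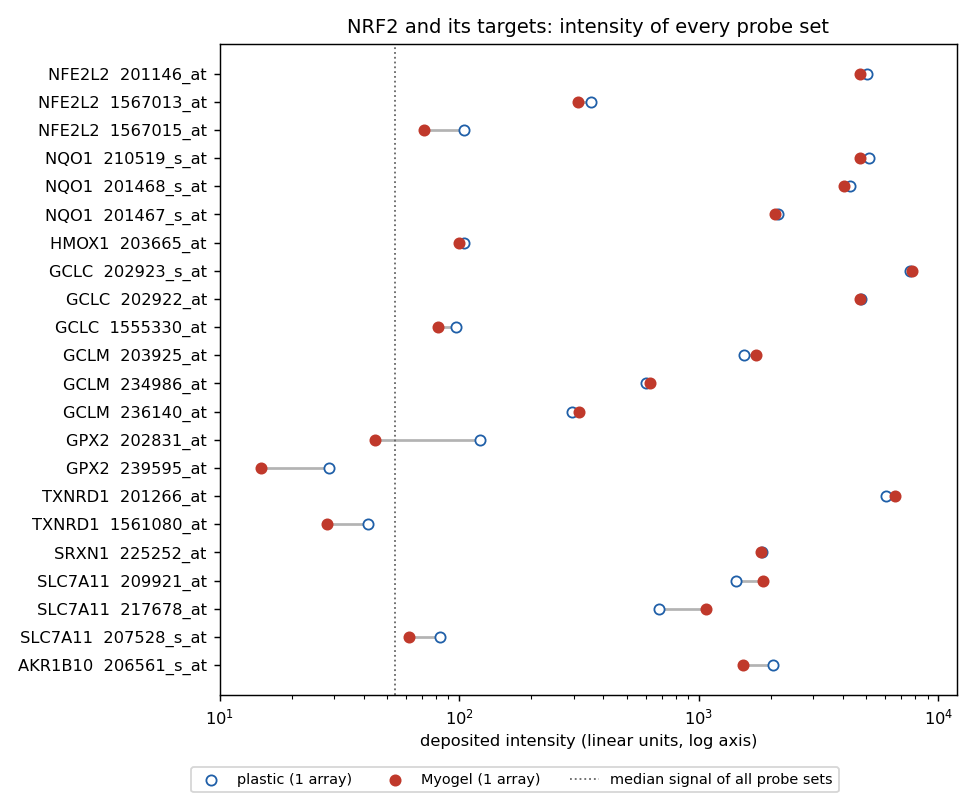
Intensity of the 22 probe sets on a log axis (linear units as deposited), with 1 open blue point for the plastic array and 1 filled red point for the Myogel array. The dotted line marks the median signal of all probe sets, 53.8. Points nearly coincide for the bright probe sets of GCLC, NQO1 and SRXN1 and are farthest apart for GPX2.

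The transcript of NRF2 itself showed little difference between the surfaces. The brightest probe set of NFE2L2 had an intensity of 5050 on plastic and 4696 on Myogel, a log2 FC of -0.11. With 1 array a surface there is no replicate spread, and in its place each probe set is given the central 95% of the log2 FCs of its 1000 neighbours in signal, called its range here. For this probe set the range ran from -0.33 to 0.27. The other probe sets of NFE2L2 had 356 on plastic and 314 on Myogel, and 105 on plastic and 71.4 on Myogel. All 3 were lower on Myogel, and all 3 lay inside their ranges. With the median log2 ratio of the arrays set to 0, the log2 FC of the brightest was 0.00. The dimmest, with a log2 FC of -0.55, came close to FC 1.5 but has a range from -1.07 to 0.93. In a pool of cells, fewer cells with a transcript and less of it per cell cannot be told apart, and the arrays do not report the NRF2 protein, which is mainly controlled by its degradation.

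The genes for the supply of glutathione differed from one another. SLC7A11 encodes the transport subunit of the cystine/glutamate exchanger xCT, which brings in the cystine for glutathione synthesis. Its brightest probe set had 1425 on plastic and 1847 on Myogel (1.30-fold higher). The second probe set had 681 on plastic and 1073 on Myogel. Its log2 FC of 0.66, a difference of 1.58-fold, lay above the range of -0.52 to 0.51 for its signal. No other of the 22 probe sets passed 1.5 in the higher direction. The third and dimmest probe set went the other way, with 83.6 on plastic and 62.0 on Myogel. The log2 FCs of the 3 probe sets were thus 0.37, 0.66 and -0.43, and their mean was 0.20. The third is an _s_at probe set, a suffix for probes that can match more than 1 transcript. All 3 probe sets of NQO1 and the brightest of GCLC, described below, carry this suffix too. SLC3A2, the heavy chain that carries the exchanger to the membrane, had 2395 on plastic and 1847 on Myogel. Its log2 FC of -0.38 was opposite to that of the brightest probe set of SLC7A11, and both lay inside their ranges. SLC3A2 was picked with its values known.

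GCLC and GCLM encode the catalytic and the modifier subunit of glutamate-cysteine ligase, the rate-limiting enzyme of glutathione synthesis. The brightest probe set of GCLC had 7642 on plastic and 7757 on Myogel and the second had 4753 on plastic and 4727 on Myogel. These log2 FCs, 0.02 and -0.01, were with that of SRXN1 the 3 closest to 0 among the 22 probe sets. The dimmest probe set of GCLC had 97.5 on plastic and 81.6 on Myogel. GCLM had 1543 on plastic and 1734 on Myogel in its brightest probe set, a log2 FC of 0.17. Its other probe sets had 600 on plastic and 623 on Myogel, and 295 on plastic and 315 on Myogel. GCLM was the only gene with more than 1 probe set in which every probe set was higher on Myogel, and each of them lay inside its range.

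GPX2 had the largest difference of the 10 genes. It encodes a glutathione peroxidase of epithelia, a selenoprotein that reduces hydrogen peroxide and lipid hydroperoxides with glutathione. Its brightest probe set had 122 on plastic and 44.6 on Myogel (2.74-fold lower). The log2 FC of -1.45 lay below the range of -1.21 to 0.92 for probe sets of like signal. The other probe set had 28.7 on plastic and 14.9 on Myogel (1.92-fold lower), inside the wide range of -2.35 to 2.45 at that signal. Both probe sets thus pointed the same way and both passed 1.5. GPX2 was also dim, with a mean signal under the median of genes, and on the linear scale the brighter one fell by 77.5 units. GPX2 did not pass when the linear difference also had to reach 100 units. With an offset of 50 added to both values, its log2 FC was -0.86.

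Of the genes of the thioredoxin system, TXNRD1 encodes the cytosolic thioredoxin reductase, a selenoprotein that passes electrons from NADPH to thioredoxin. Its brightest probe set had 6035 on plastic and 6616 on Myogel, a log2 FC of 0.13. Its dim probe set had 41.8 on plastic and 28.1 on Myogel, a log2 FC of -0.57, and the mean of both was -0.22. The direction for TXNRD1 thus depends on which probe set is used, and both lay inside their ranges. SRXN1 encodes sulfiredoxin, which repairs overoxidised peroxiredoxins. Its only probe set had 1839 on plastic and 1821 on Myogel, a log2 FC of -0.01.

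None of the 3 detoxifying enzymes passed 1.5. NQO1, a quinone reductase and a standard readout of NRF2 activity, had 5117 on plastic and 4703 on Myogel in its brightest probe set. Its other probe sets had 4289 on plastic and 4034 on Myogel, and 2139 on plastic and 2080 on Myogel. The log2 FCs of -0.12, -0.09 and -0.04 had the narrowest span of the 5 genes with 3 probe sets, and all lay inside their ranges. HMOX1, the inducible heme oxygenase that breaks down heme, was dim with 104 on plastic and 99.9 on Myogel, a log2 FC of -0.06 in its only probe set that became positive after quantile, loess and median scaling. AKR1B10, an aldo-keto reductase that clears reactive carbonyls and retinal, had 2032 on plastic and 1524 on Myogel. This is 1.33-fold lower, with a log2 FC of -0.42 at the edge of its range of -0.42 to 0.42. It was the bright member with the largest decrease, although it has a single _s_at probe set and a close paralogue, AKR1B15, whose transcript such probes may also detect.

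**Figure D2:**
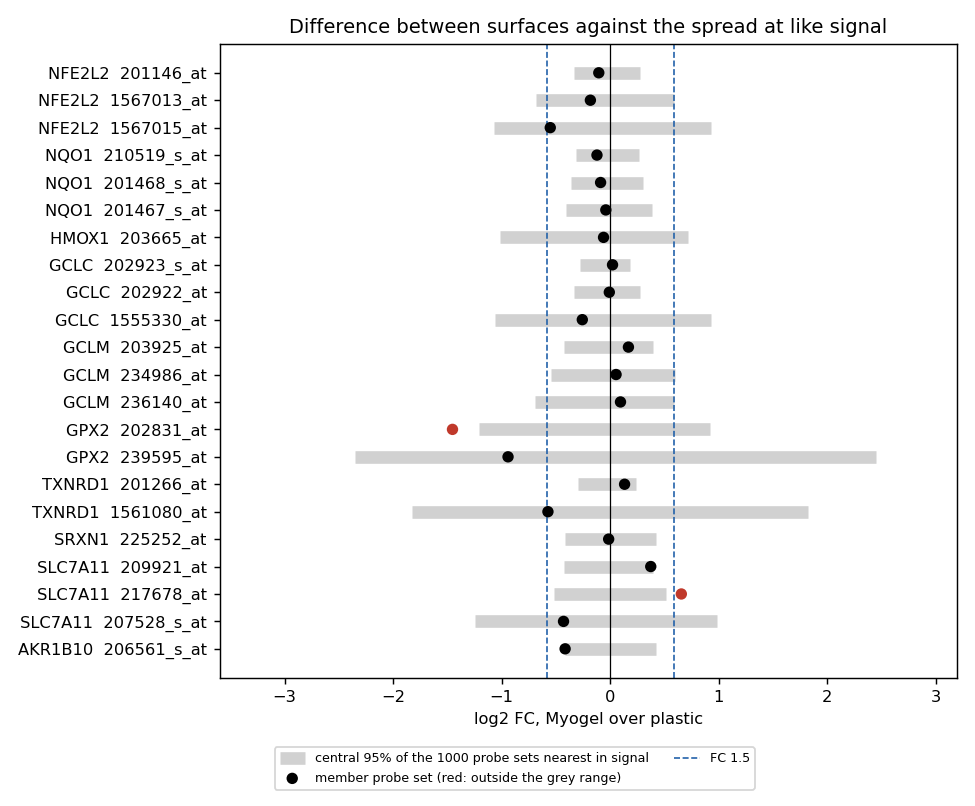
Log2 FC of Myogel over plastic for each of the 22 probe sets (points), on the central 95% of its 1000 neighbours in signal (grey bars), with FC 1.5 as dashed lines. Black points lie inside the grey bars and 2 red points outside, GPX2 at -1.45 and SLC7A11 at 0.66, and the bars widen for dim probe sets.

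Counted over the group, 3 of 22 probe sets passed 1.5, of which 1 was higher on Myogel and 2 were lower, and 19 did not pass. Over all probe sets 38.0% passed, with 13.8% higher and 24.2% lower. The split over the array depends on the scaling, since 7553 probe sets were higher and 13207 lower as deposited, but 9971 and 9973 after quantile normalization and 9957 and 9928 after loess centring. By brightest probe set, 0 of the 10 genes were higher and 1, GPX2, was lower, where 27.3% of all genes passed, with 9.71% higher and 17.5% lower. The share depends on the signal. Among the 9888 genes whose mean signal reached 142, the median over genes, 2.59% passed, with 0.930% higher and 1.66% lower. Of the 10 genes 8 reached this signal, all but GPX2 and HMOX1, and 0 of these 8 passed by the brightest probe set. Among the genes under the median signal, where GPX2 and HMOX1 lie, 51.9% passed, with 18.5% higher and 33.4% lower. Just inside the threshold was the second probe set of SLC7A11 at 1.58-fold, and just outside were the dim probe sets of TXNRD1 at 1.49-fold and NFE2L2 at 1.47-fold. The median log2 FC of the 10 genes was -0.04, against -0.07 for all genes and -0.03 for those with at least the median signal. With the median log2 ratio of the arrays set to 0 it was 0.07.

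**Figure D3:**
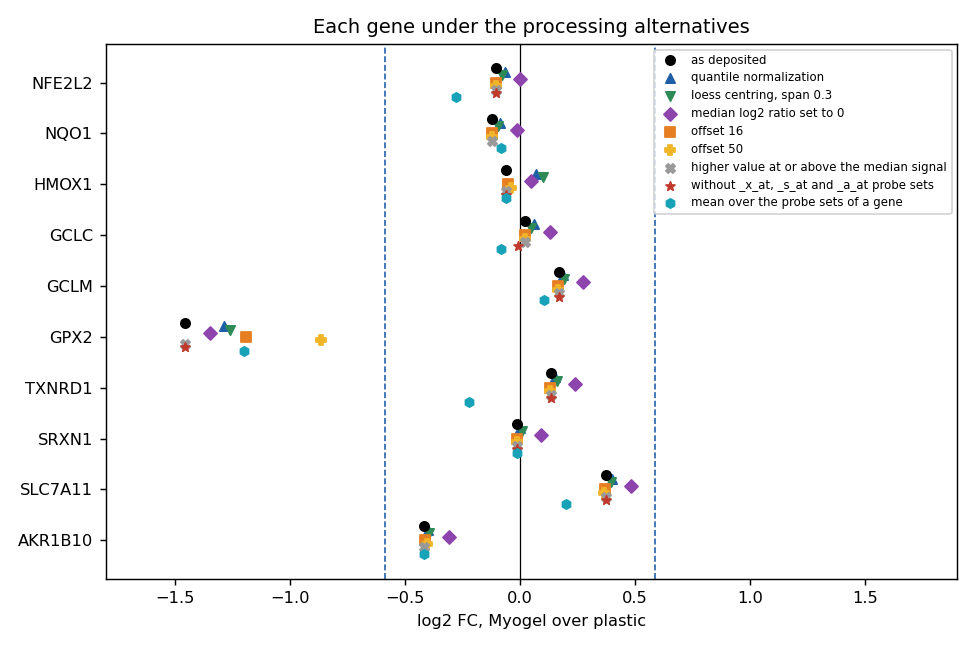
Log2 FC of each of the 10 genes as deposited (black circles, brightest probe set) and under the processing alternatives (other symbols), with FC 1.5 as dashed lines. GPX2 lies below the lower line under every setting, between -1.45 and -0.86, and the other 9 genes lie between the lines.

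The group was also divided into bands of signal, set after the values were seen. All 7 probe sets with a mean signal between 20 and 150 were lower on Myogel, with log2 FCs from -1.45 to -0.06 as deposited. In the same band 64.9% of 19100 probe sets were lower and 37.8% passed 1.5. Of the 4 probe sets between 150 and 1000, 1 was lower and 3 were higher, with log2 FCs from -0.18 to 0.66, and 1 passed 1.5. Among all 11437 probe sets of this middle band, 57.9% were lower and 7.41% passed 1.5. Of the 11 probe sets with a mean signal of 1000 or more, 7 were lower and 4 were higher, and their log2 FCs ran from -0.42 to 0.37. In that band 56.8% of 7103 probe sets were lower, 1.44% passed 1.5, and the SD of the log2 FC was 0.20. For NFE2L2, GCLC, TXNRD1 and SLC7A11 the dimmest probe set had the lowest log2 FC of the gene, while for NQO1, GCLM and GPX2 it did not.

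Around these 10 genes, 138 measured genes in 7 lists describe the rest of the pathway, by role. By brightest probe set 13 passed 1.5, of which 3 were higher and 10 were lower (4 and 6 after quantile normalization). This is 9.42%, beside 27.3% of all genes. Of the 116 that reached the median signal of genes 3 passed, which is 2.59%, the same percentage as over all genes of that signal. The median log2 FC over the 138 genes was -0.05. Outside the range for their signal were 2 higher genes and 5 lower genes, named below. Together they are 5.07% of the 138, and ranges of this kind leave 5% of probe sets outside by construction.

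Among 17 measured regulators and partners of NRF2, 0 passed 1.5 in either direction, and the median log2 FC was -0.01. KEAP1, the inhibitor of NRF2, had the highest log2 FC, with 1035 on plastic and 1356 on Myogel in its only probe set (1.31-fold higher). BACH1, a repressor that competes with NRF2 for its elements, had the lowest, with 2815 on plastic and 2131 on Myogel. It was 1.32-fold lower, just below the range of -0.39 to 0.37, and its 3 probe sets were all lower. CUL3, of the ligase that degrades NRF2, had 4237 on plastic and 3791 on Myogel, but only 1 of its 3 probe sets was lower. The small MAF protein gene MAFG had 1622 on plastic and 1901 on Myogel, but only 1 of its 2 probe sets was higher. CUL3 and MAFG were picked with their values known.

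Of 29 genes of glutathione synthesis and use, 0 passed as higher and 3 as lower, and the median log2 FC of -0.13 was the lowest of the 7 lists. GSTO2, an omega class glutathione transferase, was 1.64-fold lower, with 236 on plastic and 144 on Myogel, and both its probe sets were lower. Its log2 FC of -0.71 lay inside its range. The other lower genes were the dim GPX3 (71.4 on plastic, 40.9 on Myogel) and GSTM2 (76.6 on plastic, 50.4 on Myogel), outside the rule for names. GSTM2 did not pass after quantile normalization or loess centring, and GPX3 did not after loess centring. CHAC2, which degrades glutathione, had the highest log2 FC among genes with at least the median signal, 0.18 (1025 on plastic, 1162 on Myogel). GPX4, which protects membranes from lipid peroxidation, had 4398 on plastic and 3240 on Myogel and a log2 FC of -0.44, below its range of -0.35 to 0.31. The glutaredoxin GLRX3, with 5691 on plastic and 4246 on Myogel, also lay below its range. GPX1, the main cytosolic glutathione peroxidase, had 5427 on plastic and 5804 on Myogel, a difference of the opposite sign. GPX4, GLRX3 and GPX1 were picked with their values known.

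Of 16 genes of the thioredoxin and peroxiredoxin system, 1 passed as higher and 0 as lower, and the median log2 FC was -0.08. The higher gene was SESN2, a stress-inducible sestrin, with 359 on plastic and 552 on Myogel. It was 1.54-fold higher, just above the range of -0.62 to 0.61 for its signal, and its other probe set had a log2 FC of 0.83. SESN1, a sestrin induced by p53, had the lowest log2 FC of the list, -0.51 (238 on plastic, 167 on Myogel). Thioredoxin itself, TXN, had 14808 on plastic and 14105 on Myogel in its brightest probe set. Its second probe set went the other way, with 2165 on plastic and 3038 on Myogel, a log2 FC of 0.49. PRDX1, an NRF2 target peroxiredoxin, had 12301 on plastic and 11507 on Myogel. TXN and PRDX1 were picked with their values known.

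Of 17 genes for superoxide dismutases, catalase and selenoproteins, 1 passed as higher and 3 as lower, and the median log2 FC was -0.03. The higher gene, the extracellular SOD3, was at the floor of 1 on plastic and had 64.2 on Myogel. The lower genes SELENOM (219 on plastic, 85.2 on Myogel), SELENOP (75.5 on plastic, 29.8 on Myogel) and SELENON (91.7 on plastic, 49.7 on Myogel) were below the median signal of genes. A second probe set of SELENOP went the other way, with 5.63 on plastic and 16.2 on Myogel. These 4 genes fall outside the rule for names, and SOD3 and SELENOM lay outside their ranges. CAT, the catalase that breaks down hydrogen peroxide, had the highest log2 FC among genes with at least the median signal, 0.30 (2466 on plastic, 3044 on Myogel), and all 3 of its probe sets were higher. SELENOT, a selenoprotein of the endoplasmic reticulum, had the lowest at -0.43 (3660 on plastic, 2707 on Myogel), below the range of -0.35 to 0.35.

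The 12 genes of NADPH supply, which feeds both the glutathione and the thioredoxin systems, included 0 that passed 1.5, and their median log2 FC was 0.01. The log2 FCs of brightest probe sets ran from -0.19 for PGD, the phosphogluconate dehydrogenase (983 on plastic, 860 on Myogel), to 0.14 for PGLS, the lactonase of the same pathway (836 on plastic, 920 on Myogel). This was the narrowest span of the 7 lists. The second probe set of PGLS went the other way, with 898 on plastic and 600 on Myogel, a log2 FC of -0.58. Of the 4 probe sets of PGLS, 3 were higher.

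Of 30 genes for the detoxification of carbonyls, quinones and drugs, 0 passed as higher and 4 as lower, and the median log2 FC was -0.06. TRIM16L was 1.54-fold lower (244 on plastic, 158 on Myogel), but its other probe set had a log2 FC of 0.53. The other lower genes, EPHX1, EPHX2 and ALDH3A1, outside the rule for names, had values of 61.0 or less on both arrays. Of the 4 lower genes 1, EPHX1, still passed after quantile normalization or loess centring, and 0 genes of the list passed with an offset of 16 or 50. PTGR2, a prostaglandin reductase, had the highest log2 FC among genes with at least the median signal, 0.27 (310 on plastic, 374 on Myogel). The aldo-keto reductases AKR1C1 (4819 on plastic, 4611 on Myogel), AKR1C2 (4029 on plastic, 4149 on Myogel) and AKR1C3 (2859 on plastic, 2765 on Myogel), established NRF2 targets picked with their values known, had log2 FCs from -0.06 to 0.04. These paralogues are near-identical and their probe sets may share signal. All 3 lay closer to 0 than AKR1B10.

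Of 17 genes of heme and iron handling, 1 passed as higher and 0 as lower, and the median log2 FC was -0.04. The higher gene, outside the rule for names, was SLC40A1, the iron exporter ferroportin, with 52.7 on plastic and 96.9 on Myogel, inside the range for its low signal. PCBP1, an iron chaperone, had the highest log2 FC among genes with at least the median signal, 0.14 (4618 on plastic, 5085 on Myogel). SLC11A2, the transporter of ferrous iron, had the lowest at -0.33 (1575 on plastic, 1252 on Myogel), and 4 of its 5 probe sets were lower. The ferritin light chain FTL, a known NRF2 target picked with its values known, had 12476 on plastic and 12116 on Myogel.

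**Figure D4:**
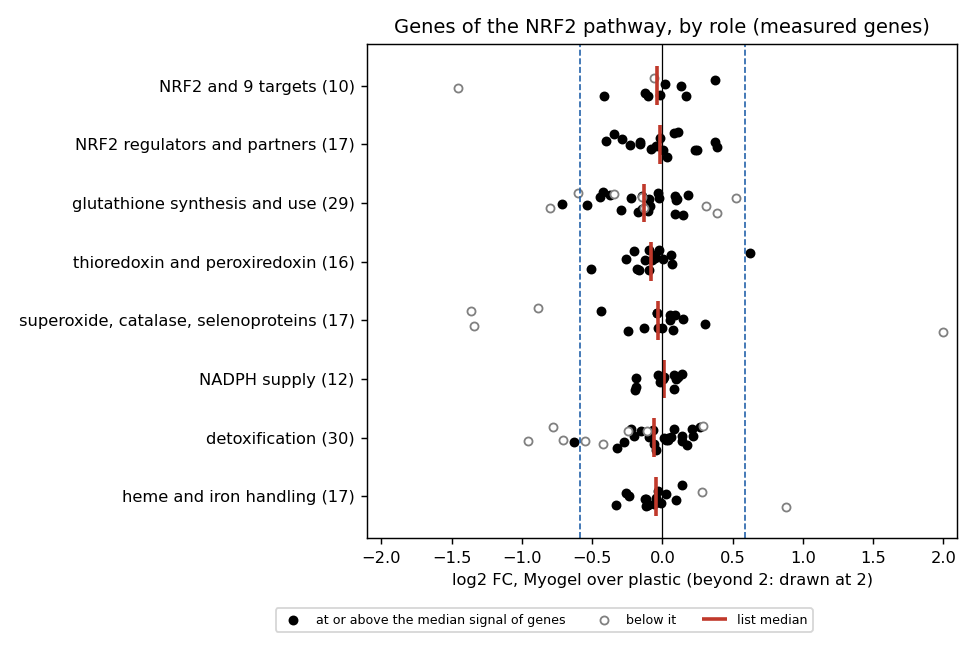
Log2 FC of the brightest probe set of each measured gene (points) in the group of 10 and in the 7 lists, with the number of genes in parentheses. Filled points have at least the median signal of genes and open points less, red bars are list medians (from -0.13 to 0.01), and dashed lines mark FC 1.5. Most points beyond the dashed lines are open, and SOD3, beyond the axis, is drawn at 2.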

How the data were processed

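Per the labels, the intensities of the 2 arrays were computed by the authors in dChip. Its version, model and scaling between arrays are not stated in these sources. A remaining constant factor between the arrays would shift all FCs together, and its part in these values was not tested. The shift seen here varied with signal. The median log2 FC was -0.03 for probe sets with a mean signal of 1000 or more and -0.22 for those between 20 and 150. The table holds 54613 probe sets and 62 controls, and both columns were used. Of the probe sets, 41091 had 1 gene symbol in the platform annotation, 1801 had several and 11721 are unnamed here. FC was computed without further scaling, and among several probe sets of 1 gene the brightest (mean log2 over both arrays) stood for the gene. The members, gene lists and rules were chosen with earlier results of these data known.

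The text names all members and, from each list, genes with FC 1.5 or more and those with the highest and lowest log2 FC, at or above the median signal of genes. Lists of squamous, smooth muscle, fibroblast, endothelial and blood markers were also set. Alternatives were quantile normalization, loess centring (span 0.3), median centring, offsets of 16 and 50, a filter on dim probe sets, leaving out _x_at, _s_at and _a_at probe sets, FC 1.2 and FC 2, a difference of 100 linear units, and the mean or any probe set of a gene. Signal over background limits the precision, and no detection calls were used. Scripts (Python 3.11.15, numpy 2.4.6, pandas 2.3.3, statsmodels 0.14.6) were tested on simulated data.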

Additional observations from a re-analysis of the deposited data

How the results depend on the processing

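No paired analysis was possible because each surface is 1 array. GPX2, the gene that passed 1.5, was lower in all 8 alternatives that give a log2 FC (-1.45 to -0.86). AKR1B10 and NQO1 were lower in the 7 that gave them a value, and SLC7A11 (0.20 to 0.48) and GCLM (0.11 to 0.27) were higher in all 8, whereas the sign for TXNRD1, GCLC, HMOX1, SRXN1 and NFE2L2 differed between alternatives. This agreement in sign was partly fixed in advance, since an added offset cannot change a sign. The filter on dim probe sets also left all 10 genes as deposited. Leaving out _x_at, _s_at and _a_at probe sets did the same for GPX2, SLC7A11 and GCLM. The median log2 FC of the 10 genes ran from -0.08 to 0.07. Of 78 values of single genes under an alternative, 75 moved by less than 1 SD of the log2 FC at their signal, read from the range. These 78 include values that a filter left unchanged. Dim signal and the single array per surface limit these counts, and the cause of the changes below was not tested beyond what each setting does.

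Of the 22 probe sets, 1 instead of 2 passed as lower after quantile normalization, after loess centring, with an offset of 16 or 50, and with the filter on dim probe sets. Of the 138 pathway genes, the 10 lower ones became 6 after quantile normalization, 5 after loess centring and 5 with the offset of 16, and with the offset of 50 there were 1 higher and 2 lower. Over all probe sets, 3812 were higher and 7728 lower with the offset of 16, 1239 and 2210 with the offset of 50, and 1570 and 3410 with the filter. Over all genes these were 1047 and 2026, 357 and 572, and 521 and 990.

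At FC 1.2, 2 probe sets of the group were higher and 6 lower, 1 gene was higher and 2 lower, 12 pathway genes were higher and 26 lower, and over the array 12238 probe sets were higher and 20935 lower, and 3582 genes higher and 6098 lower. At FC 2, 0 probe sets of the group were higher and 1 lower, 1 pathway gene was higher and 2 lower, and over the array 5087 probe sets were higher and 8365 lower, and 1257 genes higher and 2108 lower. With a difference of 100 linear units as well, 1 probe set of the group was higher, the second of SLC7A11, and 0 were lower, 0 genes of the group were higher or lower, 1 pathway gene was higher and 1 lower, and over the array 355 probe sets were higher and 500 lower, and 88 genes higher and 124 lower. With a gene counted once any of its probe sets passed, 1 gene of the group was higher, SLC7A11, and 1 was lower, GPX2. In this setting 17 pathway genes were higher and 40 lower. It was not counted over all genes, so these counts have no share beside them, and 38.0% of all probe sets passed 1.5.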

Other observations

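Selenoproteins, which hold selenocysteine and include TXNRD1 and the glutathione peroxidases GPX1, GPX2, GPX3 and GPX4, occur in several of the lists above. Grouped after their values were seen, and therefore with no test, 16 measured selenoprotein genes had a median log2 FC of -0.12, with 11 lower and 5 higher on Myogel. The 5 that passed 1.5 were all lower, and all had a mean signal under the median of genes. Among all genes under that signal 51.9% passed, 33.4% as lower. The 5 were GPX2, GPX3, SELENOM, SELENON and SELENOP, and GPX3 did not pass after loess centring. Among the bright ones GPX4 (4398 on plastic, 3240 on Myogel) and SELENOT (3660 on plastic, 2707 on Myogel) were lower, while TXNRD1 (6035 on plastic, 6616 on Myogel), GPX1 (5427 on plastic, 5804 on Myogel) and SELENOF (6564 on plastic, 6823 on Myogel) were higher.

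A probe set annotated to both NFE2L2 and CSNK2A1, left out by the rule, had 690 on plastic and 545 on Myogel. SLC7A11-AS1, an antisense gene at the SLC7A11 locus, was dim, with 4.21 on plastic and 15.3 on Myogel.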
